A study of Mus musculus with 6 samples.

Results

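Integrins are the receptors by which cells hold on to their surroundings, and laminins are the basement membrane proteins that many of them bind. Genes of both families were found by symbol on the arrays of infarcted mouse hearts: those named Itga or Itgb followed by a chain number or letter, the integrin-like gene Itgbl1, and those named Lama, Lamb or Lamc followed by a chain number. This gave 38 genes of the 36095 names on the arrays: 26 integrin alpha and beta chains, Itgbl1 and 11 laminin chains, read by 52 probes. Of these, 33 were tested, among 22991 genes tested in all.

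The hearts were those of male C57BL/6 mice, 8 weeks old, in 2 groups of 3 samples. In the antagomir group a miR-433 antagomir, a chemically modified oligonucleotide that blocks the microRNA, had been given by tail vein at 80 mg/kg on 3 consecutive days. The control group had received a scrambled oligonucleotide in the same way, and mice of both groups underwent ligation of the left anterior descending coronary artery, so no group was without an infarct. Hearts were taken 21 days after infarction, and the study asked whether inhibition of miR-433 lessens scarring of the heart. The labels say neither whether each array stands for a mouse of its own nor which part of the heart was taken, so the p-values measure the spread between these samples, which may be technical.

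An integrin is a pair of 1 alpha and 1 beta chain in the cell membrane. The alpha chain largely sets the ligand (fibrillar collagen, fibronectin and other proteins with an RGD motif, laminin, or receptors on other cells), and the tail of the beta chain is tied to actin through talin and kindlin. A laminin is a cross-shaped trimer of 1 alpha, 1 beta and 1 gamma chain that forms the sheet around each cardiomyocyte and each vessel. In the infarct scar, fibroblasts use collagen and fibronectin receptors to pull on the matrix, and integrins that bind latent TGF-beta can activate it.

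The microRNA that the antagomir blocks is read from the Dlk1-Dio3 region of chromosome 12, and its mature arms are shown because they define the treatment. The sequences are those of RefSeq (GRCm38.p6), from chr12:109591781-109591802 for the 3p arm and chr12:109591729-109591750 for the 5p arm, both on the plus strand, written 5′ to 3′ with the seed (bases 2 to 8) in capitals. The labels do not say which arm the antagomir was made against.
mmu-miR-433-3p: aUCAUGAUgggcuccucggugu
mmu-miR-433-5p: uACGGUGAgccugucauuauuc

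The promoters of 24 of the 38 genes were in the RefSeq table (GRCm38.p6). Those of Itgbl1, Itga11 and Itga8, the 3 genes whose levels were furthest below control at an unadjusted p under 0.05, are shown as the 250 bases before the transcript start, 5′ to 3′ on the gene's own strand. They are chr14:123659890-123660139 (plus strand) for Itgbl1, chr9:62677605-62677854 (plus strand) for Itga11 and chr2:12301945-12302194 (minus strand) for Itga8. Capitals mark the motif found.
Itgbl1 promoter: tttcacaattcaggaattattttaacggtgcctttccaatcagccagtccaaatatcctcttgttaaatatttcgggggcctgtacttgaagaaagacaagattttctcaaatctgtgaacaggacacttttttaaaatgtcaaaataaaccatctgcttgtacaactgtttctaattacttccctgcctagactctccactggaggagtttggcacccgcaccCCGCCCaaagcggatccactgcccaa
Itga11 promoter: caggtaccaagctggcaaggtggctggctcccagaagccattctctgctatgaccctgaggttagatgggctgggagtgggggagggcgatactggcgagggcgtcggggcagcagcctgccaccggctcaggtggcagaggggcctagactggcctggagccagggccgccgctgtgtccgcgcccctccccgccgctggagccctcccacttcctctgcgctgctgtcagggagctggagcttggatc
Itga8 promoter: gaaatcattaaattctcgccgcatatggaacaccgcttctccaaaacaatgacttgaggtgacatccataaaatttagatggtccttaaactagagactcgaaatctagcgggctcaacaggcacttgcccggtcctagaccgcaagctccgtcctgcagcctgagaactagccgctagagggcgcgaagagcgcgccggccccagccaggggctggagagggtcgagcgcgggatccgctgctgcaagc

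Both strands of these windows were searched for AP-1 (TGANTCA), TEAD (CATTCC), GC box (GGGCGG), SMAD (CAGACA) and TATA box (TATAAA) letters, and no motif contains another. The Itgbl1 window held a GC box, on the opposite strand and starting 26 bases before the transcript start, and those of Itga11 and Itga8 held none of the 5 motifs. Among 27025 promoters of the same length, 32.9% held the GC box letters, 17.1% the SMAD, 13.0% the TATA box, 12.6% the TEAD and 6.87% the AP-1 letters. Of the 24 promoters of integrin and laminin genes, 9 held the GC box letters, 7 the SMAD, 2 the TEAD, 1 the AP-1 and 0 the TATA box letters. The GC content of the window was 42.4% for Itgbl1, 68.4% for Itga11 and 56.4% for Itga8.

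The arrays shared 1 slide and 1 scan. Of the gene spots, 55.2% to 73.6% rose well above background on antagomir arrays and 57.7% to 58.5% on control arrays, and 0 were saturated. The 73.6% was that of antagomir array 3, which stood apart at its dim end. Probes dim on the other 5 arrays passed the background limit on it in 82.4% of cases where their purine share was 60% or more, and in 4.90% where it was 40% or less. Among the probes described below, that of Itga2 was purine-rich and dim on the other 5 arrays. Those of Itgad and Itga2b, the second of Itgbl1 and 1 of the 3 of Itgal were purine-rich and read low on some arrays. They rose above background on more than antagomir array 3, so the 82.4% does not cover them. Defining markers of heart muscle were high on every array: the 8 cardiomyocyte markers, summed in multiples of each array's 75th percentile signal, came to 3058 to 3322 in antagomir hearts and 2575 to 3012 in control hearts. Of them 8 of 8 were higher in antagomir hearts (62.6% of all genes were) and 0 of 8 had an unadjusted p under 0.05. For 4 of the 8 (Tnnt2, Tnni3, Pln and Myl2) the antagomir arrays lay wholly above the control arrays (50%, against 8.76% of all genes).

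Levels below are processed signals on the log2 scale after subtraction of each array's 75th percentile, so that a level of 0 equals the signal at that percentile. Differences are antagomir minus control in log2 units, tested with limma and adjusted by Benjamini-Hochberg over all genes tested. The probe of each tested integrin and laminin gene was above background on all 6 arrays except for Itga2b (5 arrays). None of these genes was thus tested through 1 group alone. Levels of different genes come from different probes and are not set against each other.

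Several integrins and laminins were lower in antagomir hearts, and those furthest down were Itgbl1, the collagen receptor chain Itga11 and the fibronectin receptor chain Itga8. Of the 33 tested genes, 20 lay below 0 and 13 above it, at a median difference of -0.14, against 8593 lower and 14398 higher genes and a median of 0.09 over all genes. At an unadjusted limma p under 0.05, 8 of the 33 were lower (24.2%) and 0 were higher, against 4.16% and 3.05% of all genes. The same 8 were those whose antagomir arrays lay wholly below the control arrays (24.2%, against 6.95% of all genes), and 0 lay wholly above them (8.76% of all genes). None of the 33 passed the adjusted threshold of 0.05, with adjusted p between 0.558 and 0.959. Over all genes 3 did (0.013%), each of them higher and none an integrin or laminin. For 3 samples against 3, an exact permutation test cannot give a two-sided p below 0.1.

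Of 22 tested integrin alpha and beta chains, 14 were lower (63.6%), 5 of them at an unadjusted limma p under 0.05 (22.7%). Of 10 laminin chains, 5 were lower (50%), 2 of them at such a p (20%). Over all genes, 37.4% were lower, and 4.16% were lower at such a p. The difference between the integrin and laminin shares was not tested. The count of lower genes depends on the scaling. With quantile scaling, 22 of the 33 were lower (66.7%, against 54.2% of all genes). With scaling by the array median, which moves the median of all genes to -0.38, 29 were lower (87.9%, against 87.0% of all genes). Relative to the median of all genes, 22 of the 33 lay below it with the reported scaling, and also with quantile scaling. Scaling by the array median moves the difference of every gene by the same amount. It therefore gives the same count by construction and is no separate check.

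**Figure D1:**
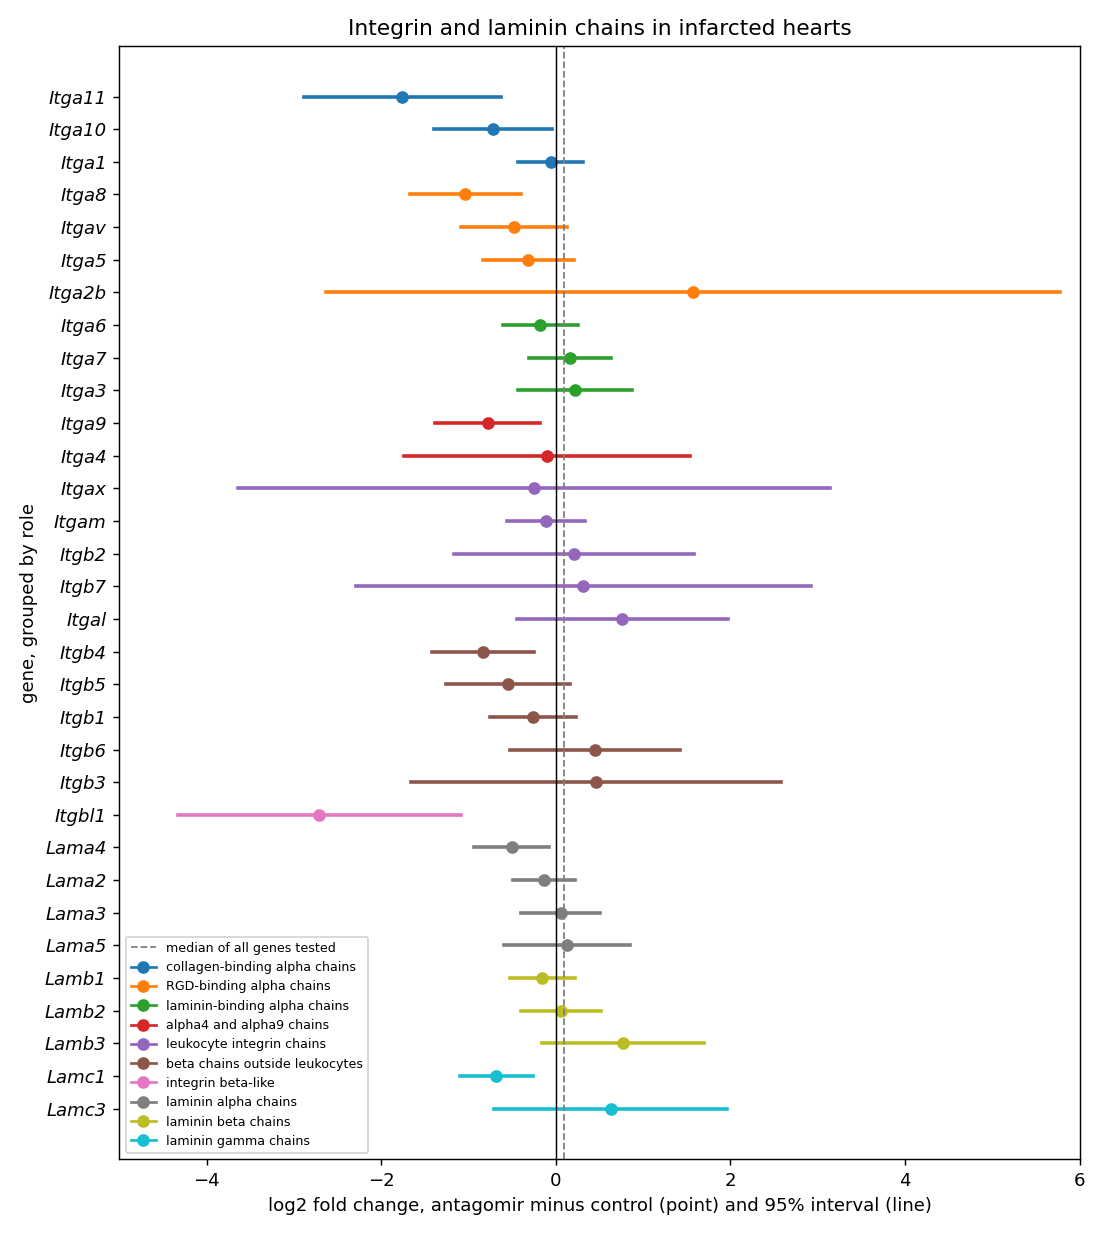
Difference between antagomir and control hearts for 32 tested integrin and laminin genes (x axis, log2; points are limma estimates, lines their 95% intervals, 3 arrays in each group), grouped by role on the y axis. The intervals of Itgbl1, Itga11, Itga8, Itgb4, Itga9, Itga10, Lamc1 and Lama4 lie below 0, while those of Itga2b, Itgax, Itgb7 and Itgb3 are the widest.

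Itgbl1 encodes a secreted protein built of the cysteine-rich repeats found in integrin beta chains, without the parts that pair with an alpha chain or cross the membrane. Its level was -0.03, 1.52 and 0.60 on antagomir arrays 1, 2 and 3, against 2.78, 4.73 and 2.70 on control arrays 1, 2 and 3. All antagomir arrays lay below all control arrays, and control array 2 was the highest. The level was 6.53-fold lower in antagomir hearts, a log2 difference of -2.71 with a standard error of 0.66 (limma, unadjusted p = 0.00643, adjusted p = 0.558). A second probe, at chr14:124239821-124239880 of the mm9 build that the array design uses, read -6.75, -4.32 and -3.82 on antagomir arrays and -2.54, -0.57 and -3.01 on control arrays. It was above background on 1 antagomir array and on 3 control arrays, and 60% of its bases are purines. The main probe lies at chr14:124373214-124373273 (plus strand).

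Among the alpha chains that bind collagen, Itga11 and Itga10 were lower and Itga1 differed little. Itga11 pairs with Itgb1 into the receptor of fibroblasts for fibrillar collagen. Its level was 1.17, 1.36 and 0.74 in antagomir hearts, against 2.28, 3.88 and 2.40 in control hearts. The groups did not overlap, and control array 2 again stood above the others. The level was 3.38-fold lower in antagomir hearts (log2 difference -1.76, standard error 0.46, limma unadjusted p = 0.00869, adjusted p = 0.573; probe at chr9:62631667-62631726, plus strand, mm9).

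Itga10, best known as a collagen receptor of cartilage, had a level of -1.33, -1.42 and -0.93 in antagomir hearts and -0.72, 0.02 and -0.82 in control hearts. The groups were apart by a narrow margin, between antagomir array 3 and control array 3. Its difference was -0.72 (standard error 0.27, limma unadjusted p = 0.0398, adjusted p = 0.674; probe at chr3:96468377-96468436, plus strand, mm9). A second probe gave -0.89, but it shares most of its sequence with the first and is no independent reading.

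Itga1, the collagen receptor chain of smooth muscle and capillaries, differed by -0.06 (95% interval -0.43 to 0.31), and its second probe by -0.19. Itga2, the collagen receptor chain of platelets and epithelia, was above background on 1 antagomir array, array 3, and on 0 control arrays. Its level was -6.86, -4.78 and -2.99 on antagomir arrays and -6.43, -4.95 and -5.69 on control arrays, so the groups overlapped. Its probe has 63.3% purines, the kind that read high on antagomir array 3.

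**Figure D2:**
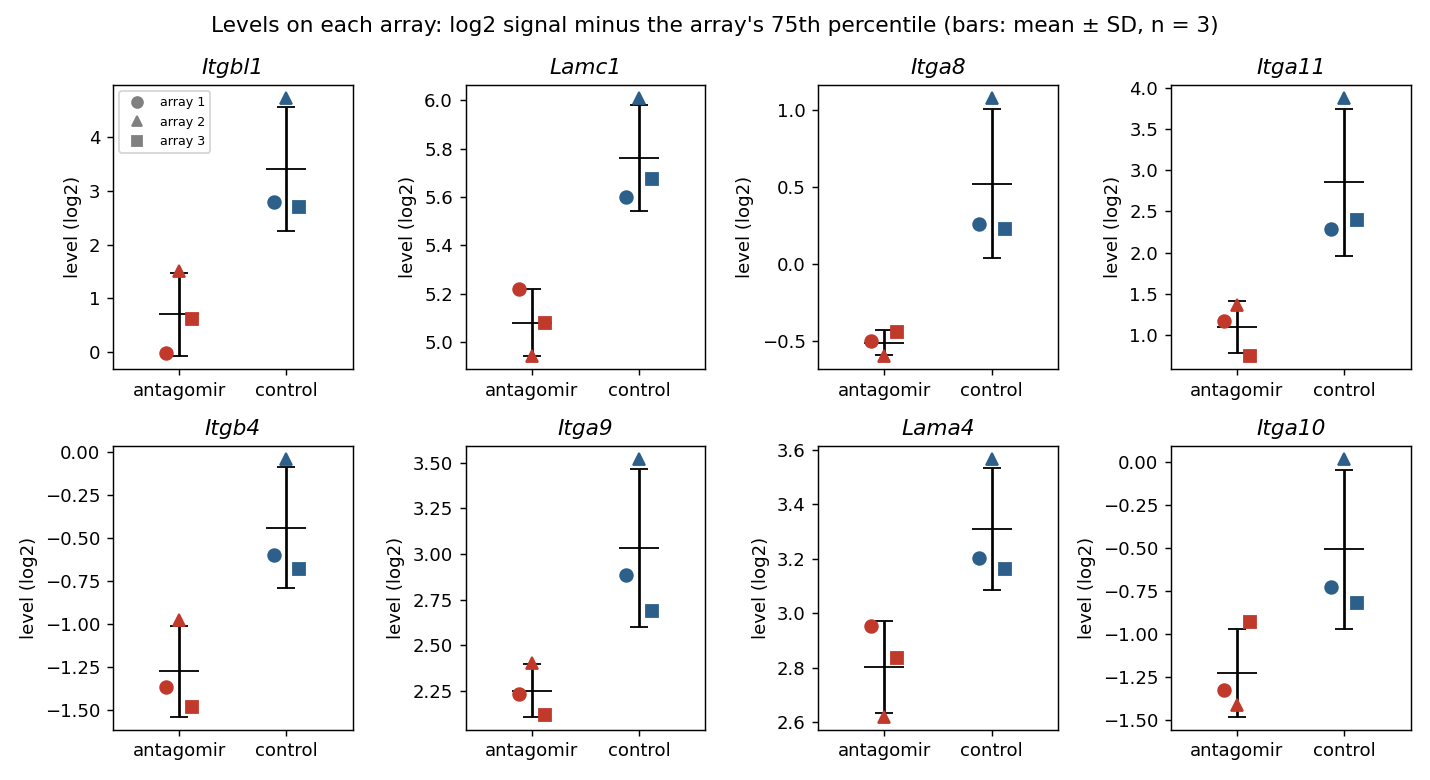
Level on each array (y axis, log2 signal minus the array's 75th percentile, a scale of its own in each panel) for the 8 genes with an unadjusted p under 0.05, with antagomir arrays left of control arrays. Symbols mark arrays 1, 2 and 3 of each group and bars the mean ± SD (n = 3). In every panel the 3 antagomir arrays lie below the 3 control arrays, and control array 2 is the highest.

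The alpha chains that bind the RGD motif of fibronectin, vitronectin and related proteins were Itga8, Itgav, Itga5 and Itga2b. Itga8, a chain of fibroblasts and smooth muscle that binds nephronectin and fibronectin, had a level of -0.50, -0.60 and -0.44 in antagomir hearts, against 0.26, 1.08 and 0.22 in control hearts. The antagomir arrays lay close together (SD 0.08) and below all control arrays (SD 0.48). The level was 2.05-fold lower in antagomir hearts (log2 difference -1.04, standard error 0.26, limma unadjusted p = 0.00710, adjusted p = 0.558; probe at chr2:12028462-12028521, minus strand, mm9).

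Itgav, whose pairs bind vitronectin and can activate latent TGF-beta, differed by -0.48 with overlapping groups (95% interval -1.09 to 0.12), and its second probe by -0.44. Itga5, the main fibronectin receptor chain, differed by -0.32 (95% interval -0.84 to 0.20). Fibronectin itself, Fn1, differed by -2.55, with levels of 3.08, 4.27 and 2.95 in antagomir hearts and 6.20, 6.45 and 5.30 in control hearts.

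Itga9 binds tenascin-C, VCAM-1 and SVEP1 and is needed for lymphatic valves, while Itga4 is carried mainly by leukocytes. Itga9 had a level of 2.23, 2.41 and 2.12 in antagomir hearts, against 2.89, 3.52 and 2.69 in control hearts. The groups did not overlap, and the difference was -0.78 (standard error 0.25, limma unadjusted p = 0.0190, adjusted p = 0.639; probe at chr9:118807900-118807959, plus strand, mm9). Itga4 differed by -0.11, with levels of -1.40, 0.86 and -1.71 in antagomir hearts and -0.64, -0.60 and -0.69 in control hearts. Antagomir array 2 was thus above all control arrays and the other antagomir arrays below them.

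The laminin receptor chains of muscle and vessels differed little. Itga7, the laminin receptor chain of muscle fibres, had a level of 6.50, 6.28 and 6.26 in antagomir hearts, against 6.24, 5.87 and 6.45 in control hearts. The groups overlapped, with a difference of 0.16 (95% interval -0.31 to 0.63). Itga6, found on endothelium and epithelium, differed by -0.18, and Itga3, which shares its ligands, by 0.22.

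Of the beta chains outside leukocytes, Itgb4 was the one whose groups did not overlap. Itgb4 pairs with Itga6 and binds laminin at hemidesmosomes of epithelia, and is also found in Schwann cells and small arteries. Its level was -1.37, -0.98 and -1.48 in antagomir hearts, against -0.60, -0.04 and -0.68 in control hearts. The difference was -0.84 (standard error 0.24, limma unadjusted p = 0.0125, adjusted p = 0.593; probe at chr11:115869666-115869725, plus strand, mm9). The 3 tested epithelial markers, Krt5, Krt14 and Krt18, summed to 0.729 to 1.31 in antagomir hearts and 1.31 to 4.74 in control hearts, with 1 of 3 lower and 2 of 3 higher. Of the defining epithelial genes, Cdh1 was above background on 0 arrays and Epcam on 1. The 4 Schwann cell markers summed to 3.16 to 3.90 in antagomir hearts and 2.76 to 3.25 in control hearts, with 3 of 4 higher (62.6% of all genes were). The part of these cells in the Itgb4 difference was not tested.

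Itgb1, the partner of most alpha chains named here, differed by -0.26 (95% interval -0.75 to 0.23) and its second probe by -0.33. Itgb5, a partner of Itgav, had a level of 5.11, 5.08 and 5.25 in antagomir hearts, against 5.24, 6.32 and 5.53 in control hearts. The groups overlapped only through antagomir array 3 and control array 1, and the difference was -0.55 (limma unadjusted p = 0.108). Itgb6, the epithelial partner of Itgav, differed by 0.45 with overlapping groups. Itgb8, an Itgav partner that binds latent TGF-beta, was above background on 0 antagomir arrays and on 1 control array, and was not tested.

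By the probes that stood for them, most integrin chains of leukocytes and platelets varied widely among the antagomir arrays, and none of their differences between groups had an unadjusted p under 0.05. Itgb2, the beta chain shared by most leukocyte integrins, had a level of -0.13, 1.97 and 0.41 in antagomir hearts, against 1.03, 0.35 and 0.26 in control hearts (difference 0.21). Itgax, the alpha chain of dendritic cells and some macrophages, read -3.24, 1.93 and -1.94 in antagomir hearts and 0.46, -1.10 and -1.86 in control hearts (difference -0.25, standard error 1.39). Itgb7, the chain of gut-homing lymphocytes, read -2.61, 1.79 and -1.22 in antagomir hearts and -0.88, -1.11 and -1.00 in control hearts (difference 0.31). For all 3 genes antagomir array 2 was the highest of the 6 arrays and antagomir array 1 the lowest.

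Itgal, the lymphocyte chain that binds ICAM-1, was likewise highest on antagomir array 2 by its main probe, at -0.36, with the other antagomir arrays at -2.14 and -1.86 and the control arrays at -2.14, -2.61 and -1.89 (difference 0.76). A second probe differed by 0.08 and was highest on control array 3, with -2.57, -2.55 and -2.63 on antagomir arrays and -2.55, -3.06 and -2.39 on control arrays, so the order of the arrays depends on the probe. The other probe, with 65% purines, differed by 1.54 and was above background on 2 antagomir and 3 control arrays. Itgam, the alpha chain of neutrophils and macrophages, did not share this order: its level was 4.04, 3.83 and 4.21 in antagomir hearts, against 4.09, 4.39 and 3.94 in control hearts. Its difference was -0.11, and its other probes gave 0.06 and 0.71, so its sign depends on the probe. The probe at 0.71 was above background on every array. By it the antagomir arrays lay wholly above the control arrays (limma unadjusted p = 0.0626). The 10 leukocyte markers summed to 51.9, 107 and 34.9 on antagomir arrays 1, 2 and 3, against 67.3, 67.0 and 64.9 on control arrays, so that array 2 was the highest for the markers too. Of these markers 6 had a negative (37.4% of all genes did) and 4 a positive difference (median -0.24), with 0 at an unadjusted p under 0.05. How far the number of leukocytes on each array sets these integrin levels was not tested.

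Of the remaining leukocyte chains, Itgad, found on macrophages, was above background on antagomir arrays 2 and 3 and on 0 control arrays. Its level was -5.47, -4.06 and -3.02 on antagomir arrays and -5.23, -5.87 and -5.35 on control arrays, so the groups overlapped. Its probe has 61.7% purines. Itgae, the chain of lymphocytes within epithelia, was above background on 0 of 6 arrays.

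Itga2b and Itgb3 together form the fibrinogen receptor of platelets. Itga2b had a level of -6.28, -0.27 and -0.03 in antagomir hearts, against -4.68, -3.08 and -3.53 in control hearts (difference 1.57, standard error 1.72), by a probe with 63.3% purines. Itgb3, which also pairs with Itgav in vessels, read -0.39, 2.91 and 2.52 in antagomir hearts and 0.95, 1.51 and 1.20 in control hearts (difference 0.46). Both chains were higher on antagomir arrays 2 and 3 than on any control array, and lower on antagomir array 1 than on any control array. The 4 platelet markers, Pf4, Ppbp, Gp1ba and Gp9, summed to 16.5, 62.1 and 48.1 on antagomir arrays 1, 2 and 3, against 21.5, 19.5 and 26.2 on control arrays. Of them 4 of 4 were higher in antagomir hearts (62.6% of all genes were) and 0 had an unadjusted p under 0.05. The part of platelets in the levels of these 2 genes was not tested. Without antagomir array 1, both Itga2b (difference 3.62) and Itgb3 (1.50) had an unadjusted limma p under 0.05, and with it neither did.

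**Figure D3:**
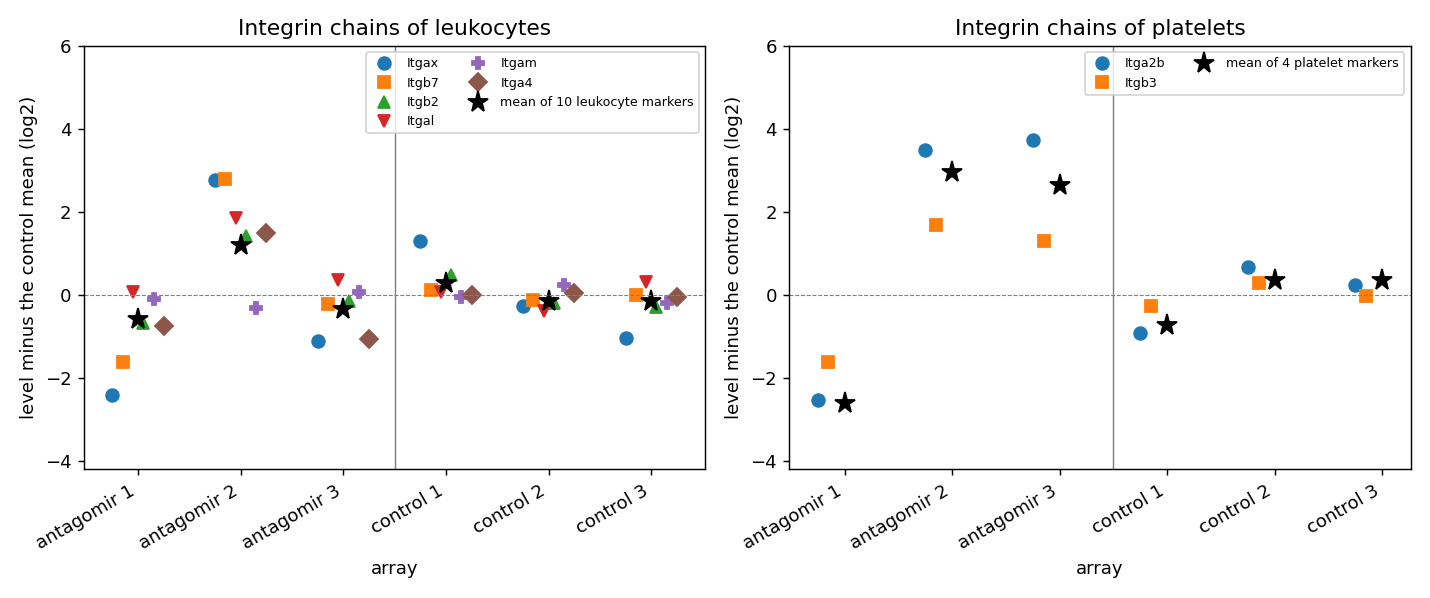
Level minus the mean of the control arrays (y axis, log2) on each array (x axis, antagomir arrays left of control arrays) for integrin chains of leukocytes (left panel) and of platelets (right panel), with the mean of the cell type's markers as stars. Itgax, Itgb7, Itgb2, Itgal (by its main probe) and Itga4 are highest on antagomir array 2, Itgam is not, and Itga2b and Itgb3 stand with the platelet markers above the control arrays on antagomir arrays 2 and 3 and below them on antagomir array 1.

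Among laminins, the gamma chain Lamc1 and the vascular alpha chain Lama4 were lower, and the alpha and beta chains of the muscle basement membrane differed little. Lamc1 is the gamma chain of nearly all laminins of muscle and vessels. Its level was 5.22, 4.94 and 5.08 in antagomir hearts, against 5.60, 6.01 and 5.67 in control hearts. The groups did not overlap, and the level was 1.60-fold lower in antagomir hearts (log2 difference -0.68, standard error 0.17, limma unadjusted p = 0.00687, adjusted p = 0.558; probe at chr1:155066156-155066215, minus strand, mm9).

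Lama4, the alpha chain of endothelial basement membranes, had a level of 2.95, 2.62 and 2.84 in antagomir hearts, against 3.20, 3.57 and 3.16 in control hearts. Its groups did not overlap either, with a difference of -0.51 (standard error 0.18, limma unadjusted p = 0.0284, adjusted p = 0.666; probe at chr10:38825794-38825853, plus strand, mm9). The 7 endothelial markers summed to 34.5 to 43.6 in antagomir hearts and 41.0 to 46.1 in control hearts. Of them 6 of 7 were lower (37.4% of all genes), 2 (Erg and Emcn) at an unadjusted p under 0.05 (4.16% of all genes). Their part in the Lama4 difference was not tested.

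Lama2, the alpha chain of the cardiomyocyte basement membrane, whose loss causes a muscular dystrophy, had a level of 5.17, 4.88 and 4.87 in antagomir hearts, against 5.04, 5.09 and 5.20 in control hearts. The groups overlapped, and the difference was -0.14 (95% interval -0.50 to 0.22), with -0.25 by its second probe. Lama5, the other alpha chain of mature vessels, differed by 0.13. Lama3, an epithelial chain, differed by 0.05, and its second probe by -0.48, so its sign depends on the probe. Lama1, a chain of the embryo, was above background on 1 antagomir array and 0 control arrays and was not tested.

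Lamb2, a beta chain of muscle synapses and mature vessels, had a level of 5.03, 4.49 and 4.97 in antagomir hearts, against 4.65, 4.85 and 4.81 in control hearts. The groups overlapped, with a difference of 0.06 that turned to -0.04 with quantile scaling. Lamb1, the other widespread beta chain, differed by -0.16. Lamb3, which pairs with Lama3 in skin, read 1.76, 1.74 and 1.62 in antagomir hearts and 0.91, 0.19 and 1.71 in control hearts. Control array 3 lay among the antagomir arrays, and the difference was 0.77 (95% interval -0.16 to 1.69). Lamc3 differed by 0.63, and its level of -1.97 on antagomir array 3 stood above the other 5 arrays, which ran from -4.04 to -3.53. Without antagomir array 3 the Lamc3 difference was 0.00.

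**Figure D4:**
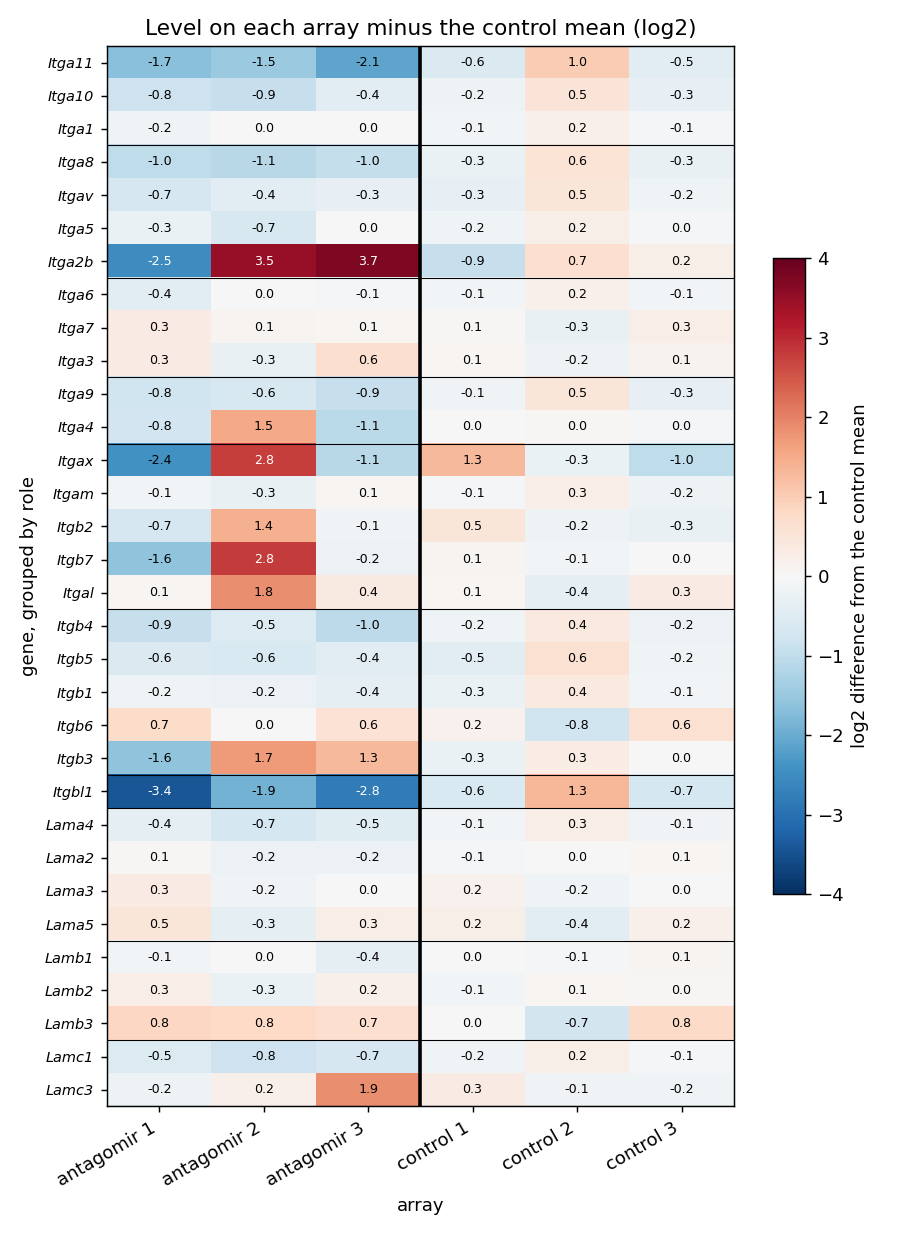
Level on each array minus the mean of the control arrays (log2, colour and printed value) for 32 tested genes (rows, grouped by role), with antagomir arrays left of control arrays. Itgbl1, Itga11 and Itga8 are low on all 3 antagomir arrays, several leukocyte chains are high on antagomir array 2 alone, and control array 2 is above the other control arrays for the genes with a low unadjusted p.

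Of 17 tested ligands other than laminins, 15 had a negative and 2 a positive difference (median -0.98), and 37.4% of all genes had a negative one. At an unadjusted limma p under 0.05, 8 were lower (47.1%) and 1 higher (5.88%), against 4.16% and 3.05% of all genes. This list was drawn up with results of these hearts known. Periostin, Postn, a scar protein that binds Itgav pairs, had a level of -0.30, 1.71 and 0.29 in antagomir hearts, against 3.97, 5.31 and 3.55 in control hearts, a difference of -3.71 (limma adjusted p = 0.516). Col1a1, the ligand of the Itga11 receptor, differed by -2.82. Tnc, a ligand of Itga9, was above background on 0 antagomir arrays and on 3 control arrays and was at least 1.23-fold lower in antagomir hearts. It is 1 of the 8, but it met the background filter through control arrays alone, so its p is not given. Madcam1, not among the 8, met the filter in the same way. Tnc and Madcam1 are counted among the 15 and in the median, although meeting the filter in this way favours a negative difference. Icam1, the ligand of Itgal and Itgb2 on endothelium, was the ligand with a low p that was higher, by 0.42.

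Of 16 basement membrane partners of laminin, 10 had a negative and 6 a positive difference (median -0.23), and 4 were lower at an unadjusted limma p under 0.05 (25.0%, against 4.16% of all genes). These 4 were Nid1 and Nid2, the nidogens that link laminin to collagen IV, at -0.62 and -0.47, and the collagen IV chains Col4a1 and Col4a2, at -0.84 and -0.63. The antagomir arrays lay below all control arrays for each of the 4. Of 21 tested adaptors on the inner side of integrins, 10 had a negative and 11 a positive difference (median 0.01), and 1 was lower at such a p (4.76%), near the share of all genes. The 4 with the lowest p were Parva, the parvin that binds integrin-linked kinase (-0.47, limma unadjusted p = 0.0397), the actin crosslinkers Flna (-0.56) and Actn1 (-0.55), and Parvb (0.23).

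Several fibroblast markers were lower in antagomir hearts, as were Itgbl1, Itga11 and Itga8. The 8 fibroblast markers summed to 381 to 546 in antagomir hearts and 618 to 728 in control hearts. Most of that gap came from the collagen chain Col1a2, at 5.20, 6.03 and 5.02 in antagomir hearts and 7.61, 8.08 and 7.07 in control hearts. All 8 lay below 0 (37.4% of all genes did), at a median of -0.54. The groups were apart for 3 (Col1a2, Lum and Pdpn), also those at an unadjusted limma p under 0.05 (4.16% of all genes). Dcn, one of the broadest of them, differed by -0.0018, and Pdgfra by -0.35. The 5 smooth muscle markers summed to 109 to 140 in antagomir hearts and 133 to 176 in control hearts. Of them 4 of 5 were lower (37.4% of all genes), 2 (Tagln and Cnn1) at an unadjusted p under 0.05 (4.16% of all genes). Their part in the integrin differences was not tested. In whole tissue, fewer cells of a type and less RNA per cell cannot be told apart.

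Control array 2 was the highest array for each of the 8 genes with an unadjusted p under 0.05. Without it the differences were smaller but all still below 0, at -2.04 for Itgbl1, -1.25 for Itga11 and -0.76 for Itga8, and 6 of the 8 still had an unadjusted limma p under 0.05, the exceptions being Itga10 and Lama4. Control arrays 1 and 2 lay in the other row of the slide from all antagomir arrays, which shared theirs with control array 3. With a block for slide row, the difference is that of the antagomir arrays from control array 3 alone, since the other row held no antagomir array. All 8 were still below 0, with Itgbl1 at -2.00 and Itga11 at -1.30. Resting on 1 control array, this block cannot settle what part slide row has in the 8 differences. The differences from control arrays 1 and 2 cannot be told apart from one between slide rows. With scaling by the array median, Itgbl1 (-3.18, limma adjusted p = 5.31e-05) and Itga11 (-2.23, adjusted p = 0.0282) passed the adjusted threshold, as did 199 genes in all, relative to the shift of all genes to -0.38. In that fit p followed the size of the difference across the integrin and laminin genes and not each gene's own spread. The adjusted p-values of Itgbl1 and Itga11 there thus do not measure the spread of these genes.

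**Figure D5:**
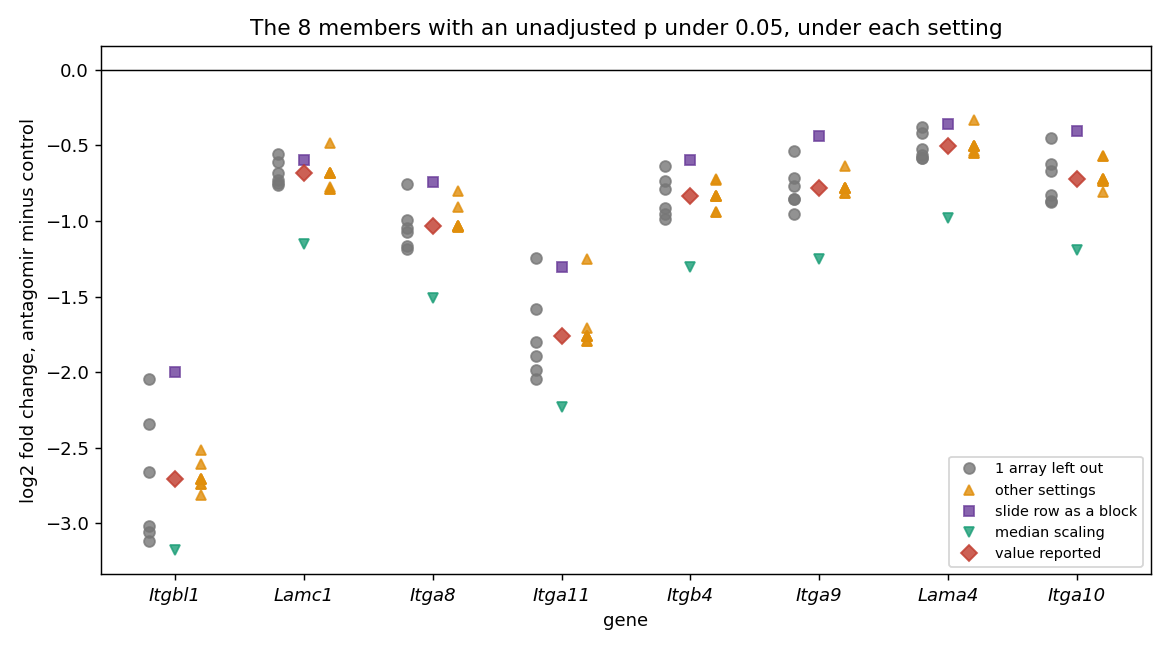
Difference between antagomir and control hearts (y axis, log2) for the 8 genes with an unadjusted p under 0.05 (x axis), as reported and under each other setting. All points lie below 0, and for each gene the one with median scaling lies lowest.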

How the data were processed

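Heart RNA of the 6 samples was labelled with Cy3 and read on 1-colour Agilent arrays. Agilent Feature Extraction 10.7.1.1 made the deposited scanner files, per the file headers. Their processed signals are intensities, background-corrected within the array and not normalised between arrays, and their mean and background signals are deposited intensities too. Other columns hold 0 or 1 for each spot, per the file headers (well above background, saturated, outlier). The authors' deposited table adds log2 values whose sorted columns differ by at most 0.00143, and its method is not given in the sources used here.

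Control and outlier spots were left out, spots of a probe were averaged, and log2 signals were set against each array's 75th percentile. A probe had to be well above background on 3 or more of the 6 arrays, and the probe with the highest mean stood for its gene. The comparison used limma 3.58.1 under R 4.3.3 (two-sided, Benjamini-Hochberg over 22991 genes, threshold 0.05), and the steps were tested on simulated data. Tables were written with pandas 2.3.3 and numpy 2.4.6 on Python 3.11.15, and figures with matplotlib 3.10.9. A bound ("at least") sets the mean of the group above background against the higher of each other array's lowest signal above background and the probe's own signal there. The number of arrays limits the precision.

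Genes and lists were chosen with earlier results of these data known. Every integrin and laminin is named except 1 gene, which is counted but not reported here. Values on each array are given for those at an unadjusted p under 0.05, for the brightest of each role and for others chosen after their values were seen. Of the ligand, basement membrane and adaptor lists the 4 genes with the lowest p are named, along with others chosen after their values were seen. Marker lists are given by counts and sums, and the markers named from them were chosen after their values were seen. Alternatives were other scalings and background correction, the authors' table, other filters, averaged probes of a gene, each probe alone, a variance trend, array weights, blocks for replicate number or slide row, and each array left out. Replicate numbers name the arrays, and the main fit pairs none of them. Gene names are those of the files or of RefSeq (GRCm38.p6), and probe positions are in mm9.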

Additional observations from a re-analysis of the deposited data

How the results depend on the processing

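The 8 genes at an unadjusted limma p under 0.05 stayed lower in all alternatives tried. Over all 33 genes the sign turned in 46 of 571 alternatives, in 14 genes, and 19 genes kept theirs in each alternative run on them. Against 3 genes past the adjusted threshold, there was 1 with quantile scaling, the authors' table or no filter, 8 with array weights, 199 with median scaling (2 of them integrins or laminins, whose median was then -0.61), 0 with normexp and quantile scaling, with all 6 arrays required above background, with the replicate block (6 of the 33 lower at an unadjusted p under 0.05) or with a block for slide row (0 of the 33), and 0 to 3 with an array left out. In the fit behind the 199, p followed the size of the difference across the 33 genes and not each gene's own spread. With an array left out, 8 to 13 genes lay wholly below the control arrays and 0 to 3 wholly above them, and 0 to 2 were higher at an unadjusted p under 0.05. Counts of genes wholly above were 1 with quantile scaling, normexp, the authors' table and no filter, and without the filter 1 (Itgae) was higher at an unadjusted p under 0.05. Deviations from the group means correlated at 0.222, 0.142 and -0.05 between same-numbered arrays, and at -0.28 to 0.17 between differently numbered ones. With 3 arrays in each group this cannot settle whether the numbers pair the samples, and the main fit assumed no pairs.

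Signs turned as follows. With quantile scaling, normexp and the authors' table, Lama3 was -0.061, -0.051 and -0.061 and Lamb2 -0.037, -0.032 and -0.038. With median scaling, which shifts all genes down, Itga3 was -0.25, Itga7 -0.31, Itgb2 -0.27, Itgb3 -0.012, Itgb6 -0.026, Itgb7 -0.16, Lama3 -0.42, Lama5 -0.34 and Lamb2 -0.41. With the mean of a gene's probes Itgam was 0.22 and Lama3 -0.21, and by single probes Itgam was 0.71 and 0.065 and Lama3 -0.48. With array weights Itgb2 was -0.52, Itgb3 -0.37 and Itgb7 -0.72. A block for slide row sets the antagomir arrays against control array 3 alone. With it Itga1 was 0.024, Itga7 -0.098, Itgam 0.084, Itgax 0.78, Itgb6 -0.17, Lama5 -0.072 and Lamb3 -0.0047. With an array left out the ranges were -0.12 to 0.043 for Itga1, -0.91 to 0.37 for Itga4, -0.21 to 0.012 for Itgam, -1.76 to 0.83 for Itgax, -0.40 to 0.65 for Itgb2, -0.16 to 1.50 for Itgb3, -0.92 to 1.28 for Itgb7, -0.082 to 0.16 for Lama3, -0.092 to 0.37 for Lama5 and -0.037 to 0.23 for Lamb2. The cause of these turns was not tested.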
